A study of Mus musculus with 2 samples.

Results

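Of the 17539 GATA4 peaks that the authors called in mouse myoblasts, 554 (3.16%, 95% interval 2.90% to 3.43%) lay at either end of a long non-coding RNA (lncRNA) gene and away from the ends of protein coding genes. A peak was taken when its centre was within 1 kb of either end of a lncRNA gene and over 1 kb from every end of a protein coding gene, in the RefSeq gene table of GRCm38. The rule used position only and took no account of scores, widths or sequence, although these can still vary with position. Another 1675 peaks (9.55%) lay at protein coding gene ends only, 179 at ends of both kinds, and 15131 elsewhere.

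The study made 1 GATA4 chromatin immunoprecipitation (ChIP) library and 1 control IgG library, both from skeletal muscle myoblasts grown from satellite cells, the stem cells of muscle. Both groups carried the same genotype, the strain STOCK Myf5tm1Pas/J, whose name states a targeted Myf5 allele, and neither received a drug or other treatment. The cells were kept in growth medium with serum and basic fibroblast growth factor. The GATA4 library was precipitated with a mixture of 3 antibodies to GATA4. Neither the age nor the number of animals is stated in these sources. The peaks come from the GATA4 library alone, with no replicate, so no value below carries an error between cultures and nothing was tested between conditions. Reads per peak were not analysed here. The depth is therefore unknown, no IgG level stands beside a peak, and the intervals given for shares (exact Clopper-Pearson) and medians (from ordered values) cover counting error only. A peak list carries no expression, so the labelled cell type was not checked against markers and no statement is made on whether any of these lncRNAs was transcribed.

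GATA4 is a zinc finger transcription factor best known for its part in heart, gut and gonad development, and it recognises short sites built around the letters GATA. Long non-coding RNAs are transcripts that are processed much like messenger RNAs but encode no known protein. Many start inside enhancers or share a start region with a neighbouring gene, and some serve as the precursors of microRNAs or small nucleolar RNAs.

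The following sequences are RefSeq promoter windows of GRCm38.p6, running from 250 bases before to 50 bases after the start of transcription, that lay wholly inside one of the 554 peaks. Letters in capitals mark matches, on either strand, to a GATA hexamer (the letters AGATAA, the variant AGATAG, the letters TGATAA or the variant TGATAG), to TGANTCA, the site of AP-1 factors such as Jun and Fos, or to CAGCTG, an E-box of the kind bound by MyoD and other basic helix-loop-helix factors. A match is a description of letters and not a measured binding site. The first set holds the 6 windows inside the highest-scoring of these peaks, shown because these were the strongest of the peaks that contained a whole window.
Gm40732: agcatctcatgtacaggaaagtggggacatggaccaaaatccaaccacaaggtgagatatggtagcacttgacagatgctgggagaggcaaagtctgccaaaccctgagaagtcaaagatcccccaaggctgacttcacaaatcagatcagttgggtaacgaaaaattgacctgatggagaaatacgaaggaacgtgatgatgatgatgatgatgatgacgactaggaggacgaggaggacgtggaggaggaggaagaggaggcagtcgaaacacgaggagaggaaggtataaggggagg
Gm33315: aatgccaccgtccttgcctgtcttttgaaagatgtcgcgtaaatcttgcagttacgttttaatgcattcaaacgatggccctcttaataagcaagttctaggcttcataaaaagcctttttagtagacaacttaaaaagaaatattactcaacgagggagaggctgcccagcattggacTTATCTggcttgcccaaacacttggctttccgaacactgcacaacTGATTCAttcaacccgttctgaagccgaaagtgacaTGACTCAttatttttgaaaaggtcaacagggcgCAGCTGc
Gm33979: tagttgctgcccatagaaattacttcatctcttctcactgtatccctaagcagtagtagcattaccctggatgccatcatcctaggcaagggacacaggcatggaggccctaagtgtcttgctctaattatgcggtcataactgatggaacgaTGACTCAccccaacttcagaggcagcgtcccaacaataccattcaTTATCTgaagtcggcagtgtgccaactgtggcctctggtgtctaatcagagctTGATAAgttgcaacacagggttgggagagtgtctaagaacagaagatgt
A530046M15Rik: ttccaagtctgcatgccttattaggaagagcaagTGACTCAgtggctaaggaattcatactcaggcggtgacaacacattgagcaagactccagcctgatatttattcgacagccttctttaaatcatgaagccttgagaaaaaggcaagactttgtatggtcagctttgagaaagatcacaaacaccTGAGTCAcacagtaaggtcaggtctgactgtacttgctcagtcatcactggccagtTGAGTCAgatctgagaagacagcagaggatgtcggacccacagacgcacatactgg
Gm40491: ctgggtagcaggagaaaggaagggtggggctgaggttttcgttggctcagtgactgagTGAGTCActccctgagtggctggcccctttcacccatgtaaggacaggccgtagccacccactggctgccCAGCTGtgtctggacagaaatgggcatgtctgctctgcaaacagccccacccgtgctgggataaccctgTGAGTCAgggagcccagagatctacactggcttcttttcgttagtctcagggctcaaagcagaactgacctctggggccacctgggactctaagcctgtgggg
Gm35636: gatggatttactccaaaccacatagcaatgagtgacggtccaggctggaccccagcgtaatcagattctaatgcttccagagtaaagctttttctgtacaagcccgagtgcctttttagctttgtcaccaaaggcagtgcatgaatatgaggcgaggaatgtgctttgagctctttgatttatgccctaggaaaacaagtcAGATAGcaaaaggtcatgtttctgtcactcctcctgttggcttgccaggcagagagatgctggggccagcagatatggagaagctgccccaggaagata

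The window of Gm40732 (chr10:85740290-85740589, minus strand) held none of the 3 motifs, although its peak scored highest of the 6 at 368.36. Gm33315 (chr13:52828828-52829127, plus strand) held all 3, with 1 GATA hexamer, 2 AP-1 sites and 1 CAGCTG. Gm33979 (chr10:70740187-70740486, minus strand) held 2 GATA hexamers, one of them 52 bases before the start and the other 1 base after it, and an AP-1 site 97 bases before the start. The 3 matches of A530046M15Rik (chr13:15806993-15807292, plus strand) were all to AP-1, at 216, 62 and 6 bases before the start. Gm40491 (chr12:86833714-86834013, minus strand) held 2 AP-1 sites and 1 CAGCTG and no GATA hexamer. Gm35636 (chr10:86161700-86161999, plus strand) held a single GATA hexamer 49 bases before the start. The windows inside these strong peaks therefore differed in their motifs, and 3 of the 6 held no GATA hexamer. Over all 107 covered windows 53 held one (49.5%), and 36.6% of all lncRNA windows did, so the 6 were near the share of the covered windows. Each window is a 300-base part of a wider peak, and the rest of the peak was not read.

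The next windows belong to genes with a GATA4 peak at each end, Gm30242 (chr1:132150345-132150644, plus strand) and Gm35696 (chr10:121509848-121510147, plus strand). The last is Snhg8 (chr3:123508287-123508586, minus strand), the host gene of a small nucleolar RNA, shown as the one lncRNA of the lists below whose window was covered and as a start that held none of the 3 motifs under a weak peak (score 62.71).
Gm30242: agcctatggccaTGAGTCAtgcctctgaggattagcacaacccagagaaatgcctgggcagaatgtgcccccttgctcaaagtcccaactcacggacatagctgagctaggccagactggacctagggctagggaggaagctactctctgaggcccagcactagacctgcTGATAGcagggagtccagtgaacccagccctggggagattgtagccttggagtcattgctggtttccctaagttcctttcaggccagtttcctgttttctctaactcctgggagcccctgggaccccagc
Gm35696: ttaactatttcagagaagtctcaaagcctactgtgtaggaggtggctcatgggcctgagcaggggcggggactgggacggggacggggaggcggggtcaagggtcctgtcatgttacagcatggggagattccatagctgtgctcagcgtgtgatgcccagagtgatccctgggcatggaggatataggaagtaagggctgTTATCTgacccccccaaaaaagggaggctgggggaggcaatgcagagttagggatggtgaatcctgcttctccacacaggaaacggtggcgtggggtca
Snhg8: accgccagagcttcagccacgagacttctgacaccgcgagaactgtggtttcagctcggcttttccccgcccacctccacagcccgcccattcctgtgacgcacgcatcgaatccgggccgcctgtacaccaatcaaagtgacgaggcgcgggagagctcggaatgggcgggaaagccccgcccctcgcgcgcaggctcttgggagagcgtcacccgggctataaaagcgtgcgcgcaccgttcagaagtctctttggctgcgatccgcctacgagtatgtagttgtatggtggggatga

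Peaks gathered at the starts of lncRNA genes and not at their ends. The promoter table gives the strand of 9533 lncRNA genes, and over these genes 280 peak centres lay within 1 kb of a start, 131 upstream and 149 downstream. That was 140 per kb, against 86.0 per kb in the flanks from 3 to 5 kb on either side, a ratio of 1.63. The fullest 250 bp bin, with 53 centres, ran from 250 bp upstream to the start itself. Around the ends of transcription 182 centres lay within 1 kb, or 91.0 per kb against 94.0 per kb in the flanks, a ratio of 0.968. Peaks near other genes of the same kind can enter both counts, and peaks within 1 kb of a protein coding end were left out throughout.

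**Figure D1:**
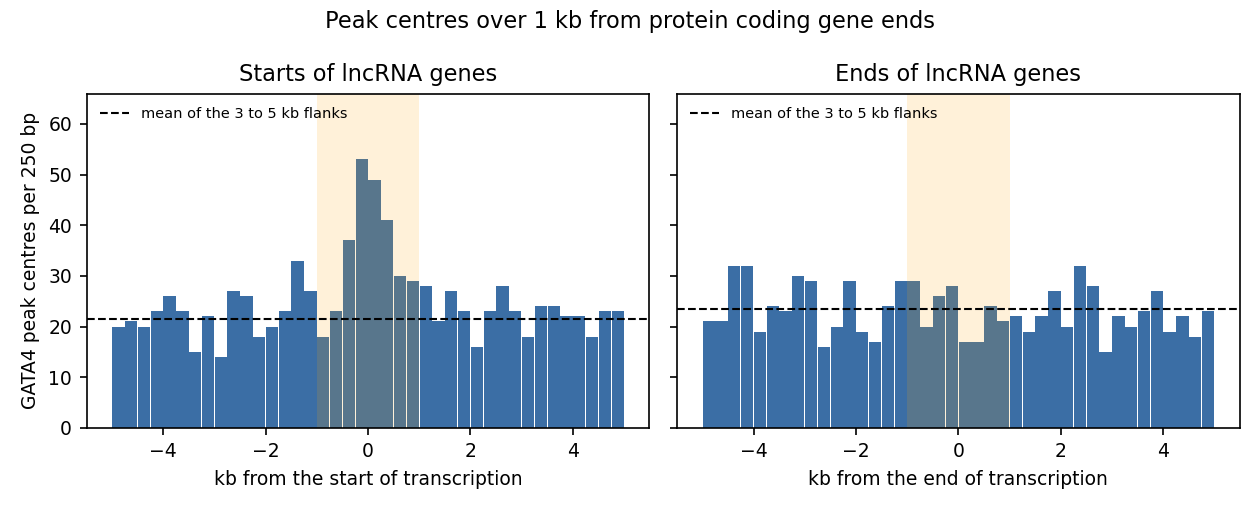
GATA4 peak centres per 250 bp bin, over 1 kb from every protein coding gene end, by distance in kb from the start (left) and the end (right) of transcription of 9533 lncRNA genes. The shaded band is the 1 kb window, the dashed line the mean of the flanks from 3 to 5 kb. Bins rise to 53 beside the start, and no such rise is seen at the end.

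Counted by peak, 434 of the 554 (78.3%) lay at a gene whose strand is known, and 267 of these (61.5%, 56.8% to 66.1%) were nearest to its start. The other 167 (38.5%) were nearest to its end. Genes of unknown strand were not evenly spread, and most of the 15 peaks on chromosome 18 were at such genes. These genes also have no promoter window, so they do not enter the motif shares. Peaks at protein coding ends were placed at the start more often, 1156 of 1372 (84.3%, 82.2% to 86.1%). In genes longer than 2 kb, whose ends are well apart, the lncRNA share was 62.2% (240 of 386). The peak covered the end itself for 156 of 267 peaks at starts (58.4%, 52.3% to 64.4%) and for 62 of 167 at ends of transcription (37.1%, 29.8% to 44.9%). Starts were thus touched more often as well as neighboured more often.

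The centre lay inside the nearest lncRNA gene for 308 peaks (55.6%, 51.3% to 59.8%), and 540 of the 554 had just 1 lncRNA gene within 1 kb. In all, 166 centres (30.0%, 26.2% to 34.0%) lay inside a protein coding gene, against 55.3% of peaks at protein coding ends and 51.8% of peaks elsewhere. The groups are defined by gene ends, which bears on these shares. The share of all lncRNA gene ends that lie inside protein coding genes was not computed. The median distance to a protein coding gene end was 25.6 kb, with quartiles of 8.91 and 63.2 kb. In all, 85 peaks (15.3%) were within 5 kb of one and 175 (31.6%) were over 50 kb away. A further GATA4 peak lay within 10 kb of 208 of them (37.5%), close to the 37.2% of the whole list. Counted outward from the nearest lncRNA end in steps of 1 kb, the list held 554, 418, 344, 304 and 291 peaks. The length of genome within each step was not measured, so the fall in these counts cannot be read as a fall in density.

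In score, these peaks were closer to the peaks elsewhere, outside all of these 1 kb windows, than to those at protein coding ends. The MACS score is the authors' own value for each peak, higher where the caller ranked the peak stronger, and its formula is not stated in the header or labels. The median was 101 (97.0 to 107), with quartiles of 78.5 and 145 and a range from 52.1 to 489. Peaks at protein coding ends had a median of 84.1 (84.1 to 85.9), and peaks elsewhere 103 (102 to 104). The interval of the lncRNA group lay wholly above that of protein coding ends and overlapped that of peaks elsewhere.

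The list's median score of 99.3, reached by 8774 of all 17539 peaks, was reached by 281 of the 554 (50.7%) and by 559 of 1675 at protein coding ends (33.4%). Among the 1754 highest-scoring peaks of the list were 63 of the 554 (11.4%, 8.85% to 14.3%), against 66 of 1675 at protein coding ends (3.94%, 3.06% to 4.99%) and 10.7% of peaks elsewhere. Width did not separate the groups in this way. It had a median of 758 bp (734 to 779), against 763 bp at protein coding ends and 741 bp elsewhere.

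Within the 554, no place stood apart in score beyond the counting intervals. The median was 102 (97.0 to 110) at starts and 106 (94.5 to 114) at ends of transcription, with overlapping intervals. By distance from the gene end it was 101 (94.0 to 114) within 250 bp, 96.0 (85.9 to 107) from 250 to 500 bp, 110 (97.0 to 124) from 500 to 750 bp and 103 (94.6 to 110) from 750 to 1000 bp. These 4 intervals overlapped. Peaks over 50 kb from protein coding ends had a median of 110 (102 to 118), and those from 1 to 5 kb away 96.6 (85.2 to 108), so these intervals overlapped as well.

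A set of narrow peaks with identical scores runs through the list and through this group. Of the 554 peaks, 155 (28.0%) had a score that at least 20 peaks of the list shared, against 28.5% of the whole list. They took only 22 distinct values and had a median width of 495 bp, against 835 bp for the other 399. Their median score was 110 and their highest 245, so every lncRNA peak above 245 had a score of its own or one shared by under 20 peaks. Read counts were not analysed here, and what the repeated scores stand for was not tested.

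**Figure D2:**
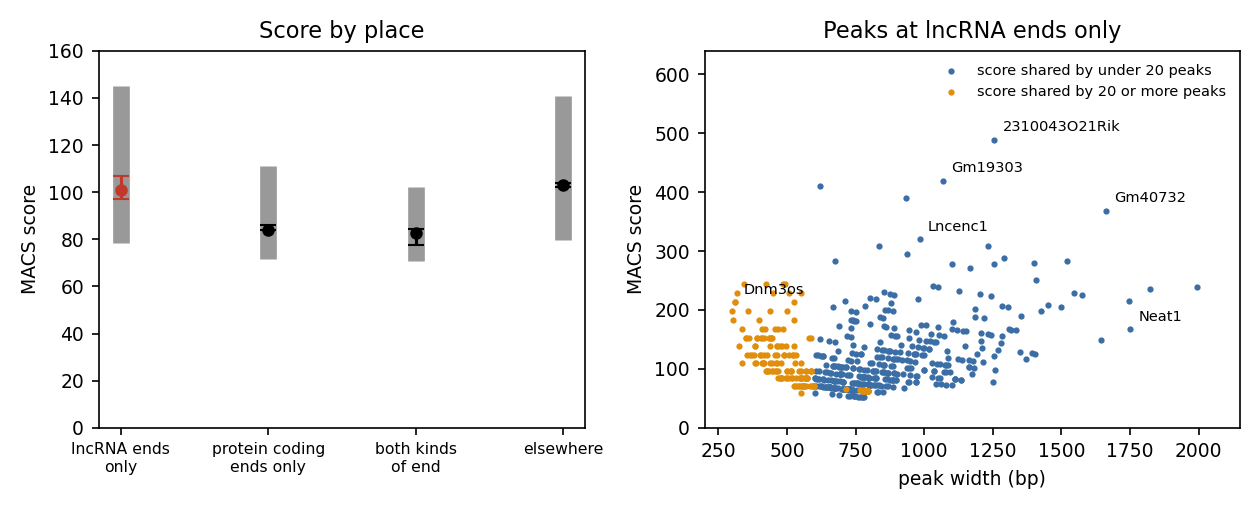
Left, MACS score of peaks by place, with the median (point), its 95% interval (error bar) and the quartiles (grey bar). Right, score against width in bp for the 554 peaks at lncRNA ends only, with repeated scores in orange. The lncRNA median of 101 stands beside the 103 of peaks elsewhere, above the 84.1 of protein coding ends, and the orange peaks form horizontal rows at narrow widths.

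The sequence under the peaks at lncRNA starts was richer in AP-1 sites, CAGCTG and GATA hexamers than lncRNA promoters without a peak. This was read from the 107 promoter windows, of 102 genes, that lay wholly inside one of the 554 peaks, beside 10993 lncRNA windows with no peak within 1 kb. TGANTCA was found in 26.2% (18.1% to 35.6%) of the covered windows, 9.05% of those without a peak and 9.31% of all lncRNA windows. CAGCTG was found in 35.5% (26.5% to 45.4%), against 17.3% without a peak and 17.7% of all. A GATA hexamer was found in 49.5% (39.7% to 59.4%), against 36.8% without a peak and 36.6% of all. For all 3, the interval of the covered windows lay above the share without a peak. Windows had to fit inside a peak to be counted, so wide peaks are favoured among them.

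Other motifs did not stand apart. GGAATG, the site of TEAD factors, was in 19.6% of covered windows, 16.7% of those without a peak and 16.6% of all. The E-box CAGGTG was in 15 of the 107 covered windows, against 21.4% of those without a peak and 21.1% of all. The E-box CACGTG was in 8.41%, against 5.86% and 5.89%. All 6 motifs were searched on both strands. Matches of different motifs shared a base in 1 of the 107 windows for AP-1 with CAGGTG and in 1 for TEAD with CAGCTG, and in none for any other pair. At least 1 of the 3 richer motifs was in 80 windows (74.8%, against 52.5% without a peak), and 27 windows, like those of Gm40732 and Snhg8 above, held none. A GATA hexamer together with an AP-1 site was in 16 windows (15.0%, 8.80% to 23.1%), against 3.69% without a peak. All 3 together were in 7 windows (6.54%, 2.67% to 13.0%), against 0.682%.

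Taken without regard to base composition, protein coding promoters under peaks were not richer in GATA hexamers, AP-1 sites or CAGCTG than those without a peak. Of 1123 such windows inside a peak, 22.0% held a GATA hexamer, 5.08% an AP-1 site and 14.2% CAGCTG. In protein coding windows with no peak within 1 kb these shares were 26.6%, 7.11% and 15.7%. Base composition differs between the classes. The median GC content was 49.3% in the covered lncRNA windows and 60.7% in the covered protein coding ones, and 15.9% against 77.4% were CpG-rich, meaning at least 50% GC with an observed to expected CpG ratio of at least 0.6. Among lncRNA windows the GC content was nearly the same with a peak (49.3%) and without (48.3%).

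The 3 motifs were also compared within windows of like GC content, split at the median of 48.3% over all lncRNA windows. AP-1 sites were in 36.7% of covered lncRNA windows below it and 17.2% at or above it, against 10.8% and 7.36% without a peak. CAGCTG was in 34.7% and 36.2%, against 12.5% and 21.9%. GATA hexamers were in 59.2% (44.2% to 73.0%) and 41.4% (28.6% to 55.1%), against 48.1% and 25.9%, so in the GC-poor windows the GATA interval reached below the share without a peak.

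**Figure D3:**
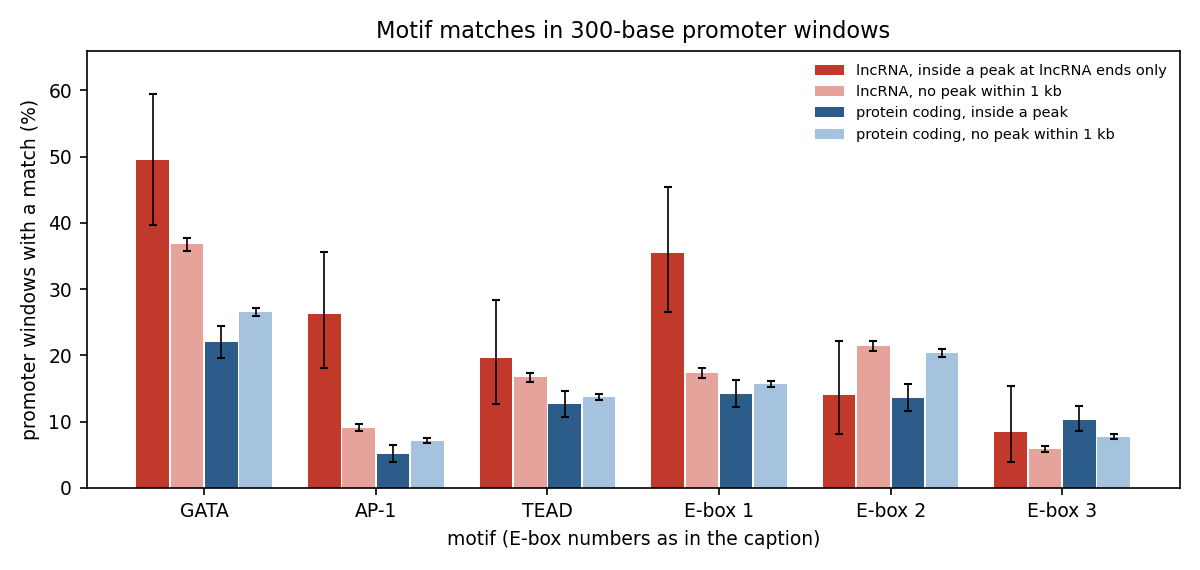
Percent of 300-base promoter windows with a match to each motif, with exact 95% intervals, for lncRNA genes (red) and protein coding genes (blue), inside a peak (dark) or with no peak within 1 kb (light). E-box 1 is CAGCTG, E-box 2 CAGGTG and E-box 3 CACGTG. The dark red bars of GATA, AP-1 and E-box 1, at 49.5%, 26.2% and 35.5%, have intervals above the light red bars.

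AP-1 sites went with strong peaks. The 28 covered windows with an AP-1 site lay in peaks with a median score of 161 (125 to 169), and the 79 without one in peaks with a median of 94.6 (88.7 to 114), so the intervals did not overlap. For GATA hexamers the medians were 131 (103 to 166) with and 94.5 (81.0 to 125) without, and these intervals overlapped. For CAGCTG they were 109 and 110, so this E-box was no more frequent in strong peaks. The 17 CpG-rich windows lay in weaker peaks, with a median of 77.5 (65.0 to 110) against 126 (101 to 152) for the other 90, again with overlapping intervals.

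Curated and predicted lncRNA genes differed in GATA content. RefSeq gives a curated transcript (prefix NR) for some lncRNA genes and only predicted ones for others. In the 72 covered windows of predicted genes a GATA hexamer was found in 59.7% (47.5% to 71.1%), against 38.7% without a peak. In the 35 of curated genes it was found in 28.6% (14.6% to 46.3%), against 30.5%, so the GATA share was raised over that of windows without a peak in the predicted genes and not in the curated ones. The 2 intervals of the covered windows did not overlap. AP-1 (29.2% and 20.0%) and CAGCTG (30.6% and 45.7%) were above the shares without a peak in both kinds, although for AP-1 in curated genes the interval (8.44% to 36.9%) reached down to the 9.05% without a peak.

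Of the 12727 lncRNA genes in the table, 542 (4.26%) had one of these peaks, 708 (5.56%) had any peak within 1 kb of an end, and of protein coding genes 2072 (9.47%) had one. Curated lncRNA genes had one of the 554 peaks in 5.18% (4.45% to 5.99%) and predicted ones in 3.93% (3.55% to 4.35%). Gene length made little difference. The shares were 4.43%, 4.15%, 4.50% and 3.96% over lncRNA genes cut by length into 4 equal groups, from the shortest to the longest, and the median length was 8.31 kb with a peak and 8.43 kb over all.

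Most of the strongest peaks at lncRNA ends lay by genes known only by a number or a clone name, as most lncRNA genes are. Only 502 of the 12727 lncRNA genes have a symbol that is not a Gm, LOC or Rik name. The highest score, 489.07, was at chr15:38594095-38595349, where the peak covered an end of 2310043O21Rik, whose strand is not in the table. It was rank 38 of the whole list. The next, 419.37, was centred 884 bp upstream of the start of Gm19303 (chr15:51395961-51397028), 390 kb from the nearest protein coding gene end. Gm51742 (410.30) ended inside Dst, which encodes the cytoskeletal linker dystonin. Its peak was 621 bp wide, one of the narrower of the strong ones.

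Gm29243 had a peak of 390.11 inside the gene, 54.5 kb from Saraf, a regulator of store-operated calcium entry. The peak at Gm40732 (368.36, chr10:85739255-85740916) was 1662 bp wide and the gene 637 bp long. Lncenc1, a lncRNA described in mouse embryonic stem cells, had a peak of 320.62 at its start (chr13:97434917-97435900). Peaks of 308.72, 308.25, 295.71 and 288.78 covered the starts of Gm33315, Gm33979, A530046M15Rik and Gm40491, whose sequences are printed above. A530046M15Rik lies 77.1 kb from Gli3, the gene of a zinc finger effector of hedgehog signalling. The last of the 12 highest were at the end of Gm34930 (283.03) and inside Gm33885 within Btbd8 (282.32, strand not in the table). Starts were in the majority among these 12, with 7 at a start, 2 at an end of transcription and 3 at genes of unknown strand.

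At the other extreme, the lowest scores were 52.12 at 1700127F24Rik, 52.30 at Gm46056 and 52.37 at Gm33801. The widest peaks were 1996 bp at Gm46941 (score 238.20), 1824 bp at Gm41125 (235.96), 1751 bp at Neat1 (167.37), 1748 bp at Gm35707 (215.59) and 1662 bp at Gm40732. The narrowest were 300 bp at Gm52913 (197.65), 303 bp at Gm32934 (182.39) and 311 bp at Dnm3os (213.15). All 3 narrow ones had repeated scores, shared by 116, 175 and 104 peaks of the list, and none of the widest did by the limit of 20.

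Among the lncRNAs with known roles that were listed, few had a peak. Of 16 muscle and heart lncRNAs 1 had one (Dnm3os), as did 1 of 14 imprinting and X inactivation lncRNAs (Airn), 1 of 13 nuclear and ubiquitous ones (Neat1), 2 of 21 snoRNA host genes (Snhg8 and Zfas1) and 1 of 22 microRNA host genes (Dnm3os again). Against the 4.26% of all lncRNA genes, these counts of 1 or 2 are near the background and no list stood apart. Malat1, H19, Meg3 and Xist, on these lists, had none.

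Dnm3os, an antisense transcript within Dnm3, is the precursor of miR-199a-2 and miR-214, microRNAs studied in skeletal and connective tissue. Its peak (chr1:162225829-162226139) lay 434 bp beyond the end of transcription, at 8.12 kb from Mir199a-2 and 2.56 kb from Mir214. The mature sequences from the RefSeq table are shown because Dnm3os was the only one of the 22 listed microRNA host genes with a peak. Some lncRNA genes outside those 22 also had a peak and held a microRNA, and these are not shown. The seed (bases 2 to 8) is in capitals, and no seed is shared among the 4 sequences.
miR-199a-5p: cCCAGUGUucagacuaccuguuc
miR-199a-3p: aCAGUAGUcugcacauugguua
miR-214-5p: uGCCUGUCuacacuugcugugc
miR-214-3p: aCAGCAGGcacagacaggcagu

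Neat1 is the architectural RNA of paraspeckles. Its peak (chr19:5844412-5846162) covered one end of the gene, with the centre 194 bp inside, and the strand is not in the table. Airn, the imprinted lncRNA that silences Igf2r on the paternal chromosome, had a peak of 100.93 centred 682 bp upstream of its start, inside Igf2r. Snhg8 had a weak peak of 62.71 over its start, and Zfas1 one of 85.19 centred 687 bp beyond its end. Both host small nucleolar RNAs. Apart from Neat1 and Dnm3os, the peaks of these listed lncRNAs were at or just above the median score of the list at most.

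Some lncRNAs are named for a protein coding gene, with os or as in the suffix of the symbol, and the 10 of these with the highest scores were taken. Dnm3os led them. Alkbh3os1 had a peak of 166.99 centred 520 bp upstream of its start and 1.11 kb from Alkbh3, the gene of a DNA and RNA demethylase. Cep83os (127.05), Sox5os3 (124.68) and Rsf1os1 (106.96) followed. Sox5os3 starts inside Sox5, the gene of an SRY-related factor of cartilage and neural development. The rest, Mccc1os, Sorbs2os, Zfas1, Slc36a3os and Zfp286os, ran from 98.95 down to 83.65.

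Some lncRNA genes had more than 1 of these peaks. In all, 26 of the 542 genes (4.80%, 3.16% to 6.95%) had 2, beside the 4.26% of all lncRNA genes with at least 1. The first share is over genes that already had a peak and the second over all lncRNA genes, so they are unlike. A background share for a second peak was not computed. Of the 26, 16 had a peak at each end and 10 had both peaks at the same end. At Gm35696, chr10:121509947-121526473, they were nearly equal, 205.73 at the start and 229.72 at the end. At Lncenc1 the start was stronger, 320.62 against 113.64, as it was at Gm30242, 227.58 against 56.68. At BC024386 and 4833415N18Rik the end was stronger, 196.03 and 189.56 against 74.60 and 75.37 at the start. Gm30613 had 167.40 at the start and 148.09 at the end, Gm32934 132.02 and 182.39. Gm34157, 1700030C14Rik, Gm32050, Gm39478, Gm35907, Gm13056, F730311O21Rik, Gm11665 and Gm17057 were the other genes with a peak at each end. Where strand is known, the start had the higher score in 5 of 15 genes and the end in 10. Both peaks were at the same end in Gm52764, Gm41767, Gm19705, C230035I16Rik, 4930554C24Rik, Gm35502, Gm32571, Gm31813, 1700127F24Rik and Gm17762.

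Protein coding genes named as the nearest neighbour of one of these peaks give a view of the surroundings, without assigning a target. Over all protein coding genes, 504 (2.30%) were such a nearest gene. Of 34 myogenic regulators 3 were, of 36 sarcomere and contractile genes 4, of 30 matrix and adhesion genes 2, of 19 heart partners and targets of GATA4 2, of 28 cell cycle and immediate early genes 3, of 15 liver and gut markers 2, and of 19 blood, endothelial and neuronal markers 0. These shares run from 0% to 13.3%, each on 4 genes or fewer, and the 95% interval held the background for all but the sarcomere list (11.1%, 3.11% to 26.1%). The lists were drawn up with results of these peaks known, so that interval is no evidence about the list.

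Among myogenic regulators, Id2, which encodes an inhibitor of MyoD-type factors, was nearest to the peak at Gm36496 (167.40), at 94.5 kb. That peak was 420 bp wide with a score shared by 236 peaks. Mef2d, a MADS box factor of muscle, was nearest to the peak over the start of 1700113A16Rik (135.68), at 5.47 kb. Id3, a relative of Id2 named here after its value was seen, lay 1.59 kb from a peak of 124.66 that covered an end of Gm42329. Of the 3, only the peaks by Mef2d and Id3 were near the gene.

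Among contractile genes, the peak at Gm38979 (244.85, 494 bp wide, score shared by 48 peaks) lay inside Ryr1, the calcium release channel of the sarcoplasmic reticulum, 26.8 kb from its nearest end. The peak at Gm30639 (152.68, score shared by 325 peaks) lay 8.92 kb from Tpm1, a tropomyosin gene. Both were narrow peaks with repeated scores. Actc1 and Myh2 were the other contractile neighbours.

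Cdh2, encoding N-cadherin, lay 6.93 kb from a peak of 101.92 at Gm15328, and Fn1, encoding fibronectin, 161 kb from one of 67.77 at Gm30308. The GATA cofactor genes Zfpm2 and Zfpm1 were nearest to peaks of 72.55 at Gm33431 (126 kb) and 52.30 at Gm46056 (5.38 kb), both below the list's median score of 99.3. Ier3 and Jun, immediate early genes, were nearest to peaks of 152.68 at 4833427F10Rik (41.7 kb) and 106.67 at Gm12708 (142 kb), and Atf3 was the other of that list. Fabp2 and Apob, genes of lipid handling in gut and liver, were nearest to peaks of 105.52 at 4933405D12Rik (12.6 kb) and 84.08 at Gm33037 (26.3 kb). Cdh2 and Zfpm1 were close to their peaks, and most of the others were far off.

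The chromosomes differed in the share of lncRNA genes with one of these peaks. It was highest on chromosomes 15 (34 of 539, 6.31%), 10 (42 of 672, 6.25%) and 13 (41 of 695, 5.90%). It was 1.99% on chromosome 14 (12 of 603) and 0.346% on chromosome X (1 of 289), while none of 30 lncRNA genes on chromosome Y had one. As a share of all peaks of the chromosome, against 3.16% over the whole list, the group made up 34 of 832 peaks (4.09%, 2.85% to 5.66%) on chromosome 15 and 42 of 1000 (4.20%, 3.04% to 5.64%) on chromosome 13. On chromosome 10 it made up 41 of 1635 (2.51%, 1.81% to 3.39%). All 3 intervals held the share of the whole list. Chromosome 14 had 13 of 411 peaks in the group (3.16%, 1.69% to 5.35%), the same as the whole list. Chromosome X had 1 of 202 (0.495%, 0.0125% to 2.73%), with an interval below it. These chromosomes are named after their values were seen.

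**Figure D4:**
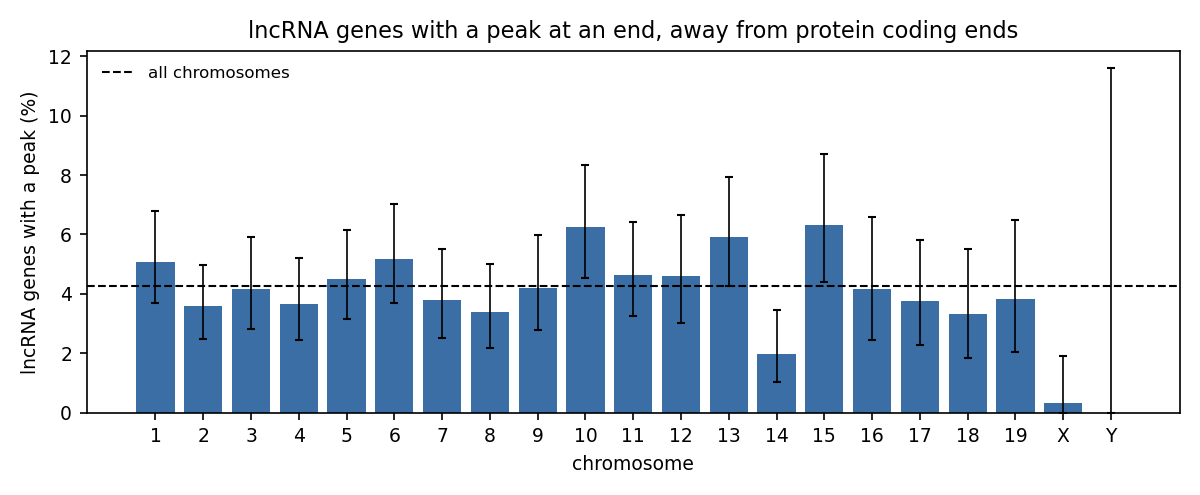
Percent of the lncRNA genes of each chromosome with one of the 554 peaks, with exact 95% intervals and the share over all chromosomes (4.26%, dashed). Chromosomes 15, 10 and 13 stand highest, and chromosomes 14 and X lowest with a peak.

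The 1 kb limit set the membership of a few peaks by a margin of some bases. The last inside were at Gm29590 (score 73.15, 982 bp from the end), Gm33007 (138.27, 980 bp) and Gm39149 (103.98, 974 bp). The first outside were at Gm33513 (68.90, 1000.5 bp), Gm36193 (138.27, 1003.5 bp) and Gm3521 (100.32, 1006.5 bp). Their scores spanned the same range on both sides.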

How the data were processed

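The study made 1 GATA4 and 1 IgG ChIP library of mouse myoblasts. The build was GRCm38 (mm10), and CASAVA 1.8 and Bowtie are named, per the submitters' processing notes. MACS in Galaxy called the peaks, per the file header. Neither the header nor the labels state the MACS version, threshold, duplicate handling or use of the IgG library. The deposited peak list gives a MACS score for each peak, used only to describe and rank peaks within it.

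Computed here (Python 3.11.15, pandas 2.3.3, numpy 2.4.6, scipy 1.17.1, matplotlib 3.10.9) were peak centres, distances to gene ends (RefSeq table of GRCm38.p6, 12727 lncRNA and 21887 protein coding genes), medians, shares and motif matches in RefSeq promoter windows, which also gave strand. The assignment was checked on simulated peaks planted near lncRNA gene ends, whether or not they met the rule. A second coding of the same rule placed 200 of 200 alike, which checks the code and not the rule. No test was made. The members and lists were chosen with earlier results of these data known. Genes named are the 12 highest and 3 lowest scores, the 5 widest and 3 narrowest peaks, listed lncRNAs, genes with 2 peaks, up to 2 neighbours per protein coding list, 10 lncRNAs named for a protein coding gene, and 3 peaks on each side of the window edge. Alternatives were other windows, peak overlap, curated genes only, peaks at or above the median score and no chromosome 10. The result of 1 lncRNA list is not reported here.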

Additional observations from a re-analysis of the deposited data

How the results depend on the processing

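Of 98 recomputed values, 72 stayed within the counting interval of the value reported (for counts, within 1.5 times it) and 26 did not. The number of peaks, 554, was 341 with a 500 bp window, 908 with 2 kb, 178 with curated genes only and 281 with peaks at or above the median score, and the number of genes, 542, was 340, 844, 172 and 284 in the same order. The share of lncRNA genes was 2.67%, 6.63%, 5.18% and 2.23% in that order, 5.43% when any overlap of the peak counted, and 3.11% without repeated scores. These follow from more or fewer peaks or genes entering. For the others the cause was not tested. The share at starts was 67.9% with 500 bp and 56.7% with 2 kb. The median width was 847 bp for peaks at or above the median score and 835 bp without repeated scores. The distance to a protein coding end was 29.8 kb with 2 kb, 21.1 kb with curated genes and 29.6 kb for peaks at or above the median score. With curated genes only, 50.6% of centres were inside the lncRNA gene, 24.2% inside a protein coding gene, and 28.6% and 45.7% of windows held a GATA hexamer and CAGCTG. AP-1 sites were in 38.3% of windows of peaks at or above the median score. The median score stayed within its interval under every alternative run.

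Chosen after seeing the data were the runs without repeated scores, with 1 promoter per gene, with the centre moved by the 1-based start, and the extension of each setting to all results. The motif search over 300 bases at the peak centre was not run, because genome sequence was not used here. No paired analysis was possible because there was 1 library per antibody. With 1 library and unknown depth, the difference between a weak peak and no peak has no measured error.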
